A study of Mus musculus with 6 samples.

Results

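The imprinted region between Dlk1 and Dio3 on mouse chromosome 12 encodes a long series of microRNAs (miRNAs), and 8 mature arms from its proximal section, around the gene Rtl1, were examined here in brown and subcutaneous fat. The arms were chosen by name and are miR-337-5p, miR-540-3p, miR-431-5p, miR-433-3p, miR-127-3p, miR-434-5p, miR-434-3p and miR-136-5p. All 8 were found among the 1251 miRNA arms of the deposited table. Small RNA was sequenced from 3 libraries of interscapular brown adipose tissue (BF-EPA 3, 4 and 5) and 3 of inguinal subcutaneous adipose tissue (SUB-EPA 1, 3 and 8). All came from C57BL/6J mice, an inbred strain, which were 5 to 6 weeks old at the start of an 11-week high fat diet and were fasted for 4 h before tissue was taken. The diet drew 45% of its energy from fat, 35% from carbohydrate and 20% from protein. In both groups it also contained 6.75% EPA, eicosapentaenoic acid, which is an omega-3 fatty acid of fish oil. Since both tissues came from EPA-fed mice, every comparison here is between tissues and not between diets.

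Genomic imprinting silences one parental copy of a gene. In this region the non-coding RNAs, among them Meg3, Rian, Mirg and the transcript antisense to Rtl1, are made from the maternal chromosome, whereas the protein-coding genes Dlk1, Rtl1 and Dio3 are made from the paternal one. The miRNAs cut from the antisense transcript pair along their full length with Rtl1 mRNA and can direct its cleavage, and miRNAs of the region are best known from brain, skeletal muscle and placenta. Each miRNA hairpin yields a 5p and a 3p arm, one of which is usually kept in the silencing complex while the other is degraded.

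The mature sequences are shown because the arms share one stretch of the genome but differ in what they can bind. They are RefSeq entries on build GRCm38.p6, the assembly also called mm10, all on the plus strand of chromosome 12 and listed 5′ to 3′ in genomic order, with the seed (bases 2 to 8) in capitals. All 8 arms were matched in RefSeq.
miR-337-5p (chr12:109585818-109585839): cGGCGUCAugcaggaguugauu
miR-540-3p (chr12:109586122-109586141): aGGUCAGAggucgauccugg
miR-431-5p (chr12:109590459-109590479): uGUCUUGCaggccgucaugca
miR-433-3p (chr12:109591781-109591802): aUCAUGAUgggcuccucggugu
miR-127-3p (chr12:109592888-109592909): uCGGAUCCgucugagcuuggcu
miR-434-5p (chr12:109594528-109594549): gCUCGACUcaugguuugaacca
miR-434-3p (chr12:109594565-109594586): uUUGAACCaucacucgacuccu
miR-136-5p (chr12:109595331-109595352): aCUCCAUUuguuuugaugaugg

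The 8 arms carry 8 different seeds, so none of them forms a seed family with another. Only miR-540-3p shared its seed with another mouse miRNA in RefSeq, miR-6915-5p, which was not among the tested miRNAs. The longest run of bases shared by any pair of arms was 9, once between miR-337-5p and miR-431-5p and once between the 2 arms of Mir434.

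The 7 hairpins span 9600 bases, and 5 of them lie within Rtl1 on its opposite strand. Rtl1, a gene derived from a retrotransposon and needed for placental development, occupies 109589193 to 109600330 on the minus strand (GENCODE M21). The hairpins Mir431, Mir433, Mir127, Mir434 and Mir136 fall inside its coding exon. Mir337 and Mir540 lie outside the annotated gene, and the mature arms miR-337-5p and miR-540-3p end 3354 and 3052 bases short of it, so the description as Rtl1-antisense holds for 6 of the 8 arms. A search of 141767 GENCODE transcripts for a site complementary to the whole mature sequence found Rtl1 for each of these 6 arms. No other gene was found for 5 of them, and for miR-136-5p the only other was Mir3071, a hairpin on the opposite strand of Mir136. For miR-337-5p the search found the opposite-strand hairpin Mir3544, and for miR-540-3p it found no transcript. The sites in Rtl1 mRNA for the arms with the largest differences between tissues are shown with the bases that pair with the seed in capitals.
Rtl1 site of miR-433-3p (from base 3749 of the transcript): acaccgaggagcccATCATGAt
Rtl1 site of miR-434-5p (from base 1002 of the transcript): tggttcaaaccatgAGTCGAGc

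Values are the log2 abundances that the authors normalized and deposited. They have a floor at 3.32, at which 910 of the 1251 arms stood in all 6 libraries, and 235 to 273 arms were above it per library. A miRNA at this value is called listed at the floor, and the read depth behind it is unknown. The lowest value above the floor was 4.26 to 5.53 per library. Libraries of the same tissue were not alike in every respect. MiR-133a-3p, a skeletal muscle miRNA, ranged from 10.32 to 17.20 among brown libraries and from 10.74 to 16.90 among subcutaneous ones, highest in BF-EPA 4 and SUB-EPA 3. SUB-EPA 1 stood apart in miRNAs of epithelial cells, with all 7 listed ones above the floor. Some of the results that rest on these libraries are given with and without them. All 4 miRNAs of a brown fat list were called higher in the libraries labelled as brown fat, against 33.5% of all tested miRNAs. MiR-378a-3p was the most abundant of the 4.

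The region did not differ between the tissues as a block. Of the 8 arms, 7 were abundant enough to be tested. MiR-431-5p and miR-433-3p were higher in brown fat, miR-434-5p was lower, and 4 did not pass the threshold (limma, Benjamini-Hochberg adjusted p of 0.05 over all 269 tested miRNAs). These 3 calls compare with 69.1% of all tested miRNAs called in this comparison, 33.5% as higher and 35.7% as lower in brown fat. The libraries of the tissues did not overlap for 3 of the 7 arms, against 74.0% of all tested miRNAs. The median difference, brown minus subcutaneous, was 0.19 over the 7 arms and -0.45 over all 269, each on the log2 scale. In bulk tissue, fewer cells that make a miRNA and less of it per cell cannot be told apart.

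**Figure D1:**
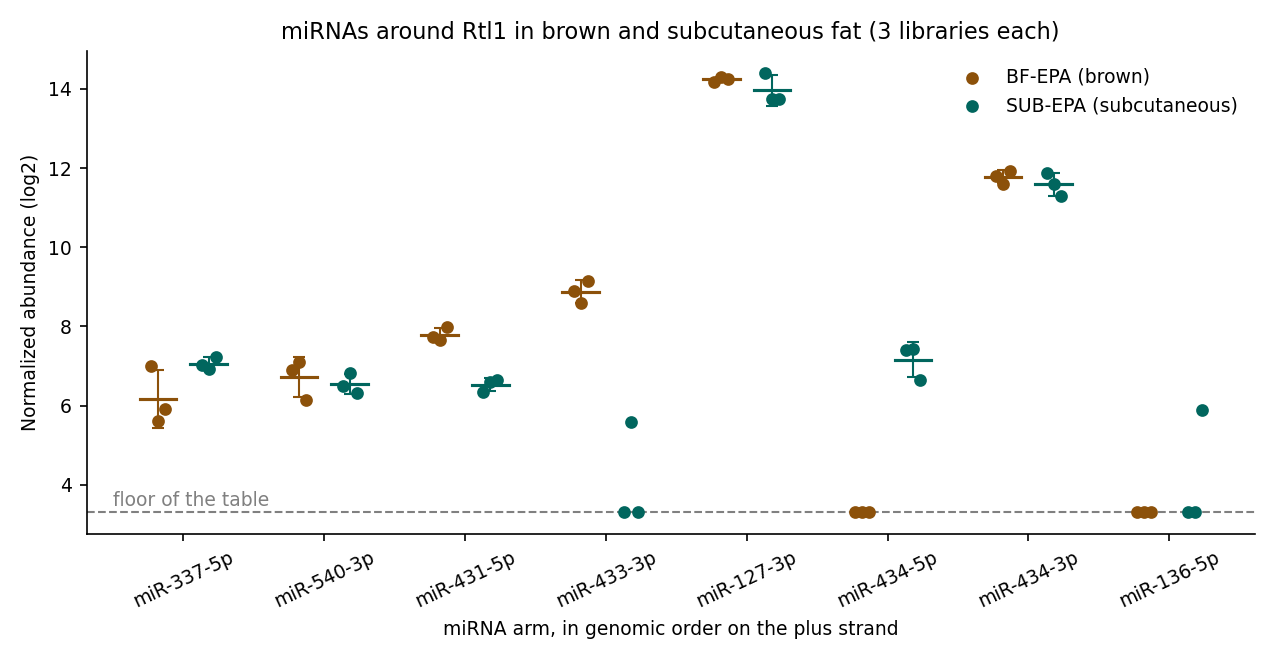
Normalized log2 abundance of each arm in genomic order, with 1 point per library (BF-EPA left, SUB-EPA right of each pair). Horizontal bars are means and error bars SDs over 3 libraries, drawn only where no library is at the floor (dashed line). MiR-433-3p is well above the floor only in brown fat, miR-434-5p only in subcutaneous fat, and miR-127-3p and miR-434-3p overlap between the tissues.

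MiR-127-3p, which in the mouse placenta restrains Rtl1, was the most abundant of the 8 arms in every library. It stood at 14.18, 14.31 and 14.24 in BF-EPA 3, 4 and 5, and at 14.41, 13.74 and 13.74 in SUB-EPA 1, 3 and 8. It ranked 22 to 24 among all 1251 arms in brown fat and 21 to 30 in subcutaneous fat. The brown libraries lay close together and within the range of the subcutaneous ones, of which SUB-EPA 1 was the highest. The difference was 0.28 ± 0.21 (SE, n = 3 per tissue, 95% interval -0.22 to 0.78), with a limma adjusted p of 0.26. It was not stable: without SUB-EPA 1 it was 0.50 with an adjusted p of 0.008, after median-of-ratios scaling 0.70 (adjusted p = 0.027), and after each library's trend with GC content was removed -0.69 (adjusted p = 0.042). Without SUB-EPA 1 the remaining subcutaneous libraries hold the same value and add no spread, so the p of 0.008 can be too small.

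MiR-434-3p, reported to restrain apoptosis in mouse muscle, was the second most abundant arm. It stood at 11.81, 11.60 and 11.94 in brown fat and at 11.88, 11.60 and 11.29 in subcutaneous fat. The tissues overlapped and their means differed by 0.19 ± 0.20 (SE, n = 3 per tissue, 95% interval -0.29 to 0.68, limma adjusted p = 0.42). It passed the threshold after median-of-ratios scaling (0.61, adjusted p = 0.043) and after removal of the GC trend (0.99, adjusted p = 0.0039). Together miR-127-3p and miR-434-3p held 96.1% to 97.0% of the summed linear abundance of the 8 arms in brown fat and 97.1% to 98.3% in subcutaneous fat. The log2 of that sum was 14.49 to 14.56 in brown fat and 14.02 to 14.66 in subcutaneous fat. The 3 arms that differed between tissues were among the remaining few percent.

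MiR-433-3p, known as a repressor of Runx2 in mouse mesenchymal cells, had the largest difference of the 8. It stood at 8.90, 8.58 and 9.15 in brown fat, whereas it was listed at the floor in SUB-EPA 1 and SUB-EPA 8 and stood at 5.57 in SUB-EPA 3. All 3 brown libraries lay far above the single subcutaneous library in which the arm was above the floor. Measured to the floor, the log2 difference was 4.80 ± 0.67 (SE, n = 3 per tissue, limma adjusted p = 0.0011), and without SUB-EPA 3 it was 5.55. It ranked 29 of 269 by absolute difference. Both its size and its SE depend on where the floor lies, with 3.08 after 40 was added to the linear values and 7.09 after the floor was subtracted and 1 added. The call held in all 16 alternatives in which the arm was tested. The other arm of this hairpin, miR-433-5p, was at the floor in all 6 libraries.

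MiR-431-5p, which in mouse muscle stem cells acts on Pax7, was higher in brown fat by a smaller amount. It stood at 7.74, 7.66 and 7.97 in brown fat and at 6.34, 6.59 and 6.66 in subcutaneous fat. No library of one tissue overlapped the other, and the spread within a tissue (SD 0.16 in brown and 0.17 in subcutaneous fat, n = 3 each) was small beside the difference of 1.26 ± 0.26 (SE, limma adjusted p = 0.0052), a 2.40-fold excess in brown fat. The call was lost after removal of the GC trend (0.54, adjusted p = 0.11), and it held in the other 15 alternatives. MiR-431-5p has a GC content of 57.1%.

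Both arms of the Mir434 hairpin are among the 8, and their values differed in pattern. Its sequence (chr12:109594506-109594599, plus strand, 94 bases) is shown with both mature arms in capitals, 5p first.
Mir434: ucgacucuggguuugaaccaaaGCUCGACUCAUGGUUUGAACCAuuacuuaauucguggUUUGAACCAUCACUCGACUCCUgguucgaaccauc

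MiR-434-5p held the floor value in all 3 brown libraries and stood at 7.40, 7.42 and 6.66 in SUB-EPA 1, 3 and 8. Measured to the floor, it was lower in brown fat by a log2 difference of -3.84 ± 0.42 (SE, n = 3 per tissue, limma adjusted p = 0.00035). The brown libraries hold a single value and add no spread, so the SE and p can be too small. The value was -1.88 after 40 was added to the linear values and -7.06 after the floor was subtracted and 1 added, and the call held in all 16 alternatives in which the arm was tested. The 3p arm exceeded the 5p arm by 8.48, 8.28 and 8.61 in BF-EPA 3, 4 and 5 and by 4.48, 4.18 and 4.63 in SUB-EPA 1, 3 and 8. In brown fat these values are set by the floor, so the contrast was not tested. The arms share the run UUUGAACCA, which opens the 3p arm and closes the 5p arm, and their seeds differ.

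**Figure D2:**
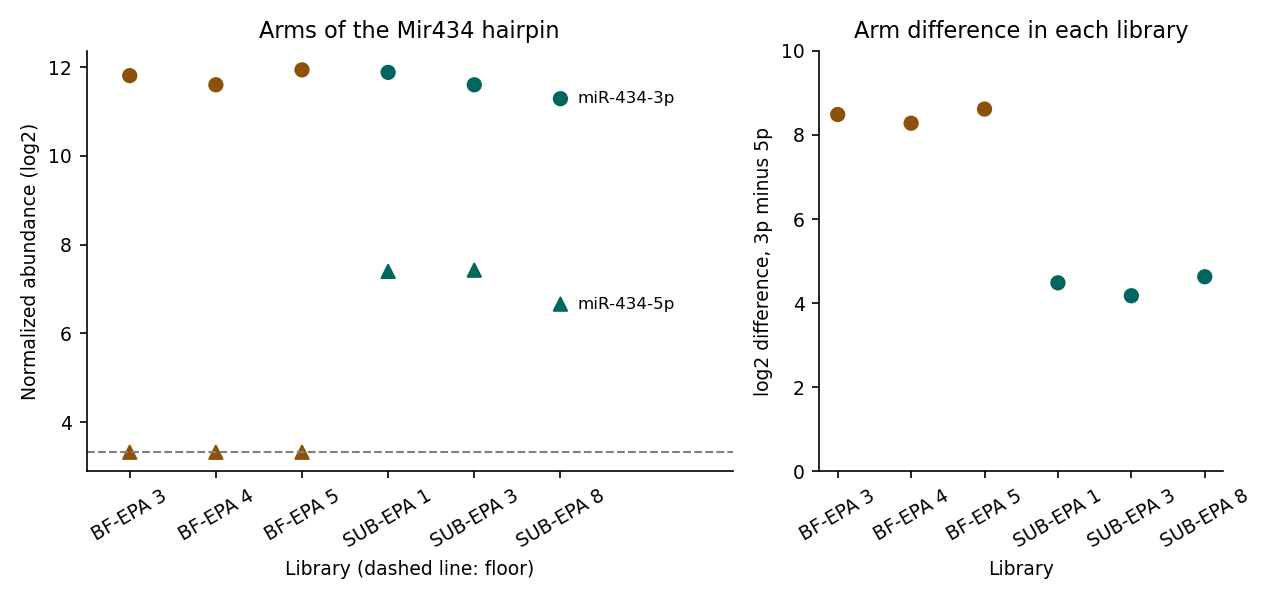
Left, log2 abundance of miR-434-3p (circles) and miR-434-5p (triangles) in each library, brown libraries first. Right, the log2 difference of 3p minus 5p in each library. The 3p arm is at a similar level in all 6 libraries, and the 5p arm is above the floor (dashed line) in the 3 subcutaneous libraries.

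MiR-136-5p, at the distal end of the coding exon, was nearly absent from the table. It held the floor value in BF-EPA 3, 4 and 5 and in SUB-EPA 1 and 3, stood at 5.88 in SUB-EPA 8, and did not pass the filter on low values. Of the 16 other listed arms around Rtl1 in the table, miR-136-3p alone was above the floor in any library. It stood at 6.59 in SUB-EPA 1 and 4.53 in SUB-EPA 3 and was at the floor elsewhere, including all 3 brown libraries. Neither arm of Mir136 was thus above the floor in brown fat, and in each subcutaneous library 1 of the arms was. However, 4.53 lies below the lowest value above the floor in BF-EPA 3 (4.98), BF-EPA 4 (5.00) and BF-EPA 5 (4.63). Such a level may not be listed in brown fat, and neither arm was tested.

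The 2 arms encoded outside Rtl1 did not pass the threshold. MiR-337-5p stood at 7.00, 5.60 and 5.92 in brown fat and at 7.03, 6.91 and 7.24 in subcutaneous fat. BF-EPA 3 reached into the subcutaneous range while BF-EPA 4 and 5 lay below it, and the brown SD was 0.73 against 0.16 in subcutaneous fat (n = 3 each). The difference was -0.89 ± 0.44 (SE, 95% interval -1.95 to 0.17, limma adjusted p = 0.11). It passed as lower in brown fat without BF-EPA 3 (-1.30, adjusted p = 0.017), without BF-EPA 3 and SUB-EPA 3 together (-1.38, adjusted p = 0.027), and after removal of the GC trend (-1.27, adjusted p = 0.042).

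MiR-540-3p, reported to restrain adipogenesis, stood at 6.90, 7.11 and 6.14 in brown fat and at 6.48, 6.81 and 6.33 in subcutaneous fat. The tissues overlapped, and the difference of 0.17 ± 0.37 (SE, n = 3 per tissue, 95% interval -0.73 to 1.08) had a limma adjusted p of 0.69. The direction turned after removal of the GC trend (-0.92, adjusted p = 0.054) and without BF-EPA 4 (-0.020, adjusted p = 0.97).

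**Figure D3:**
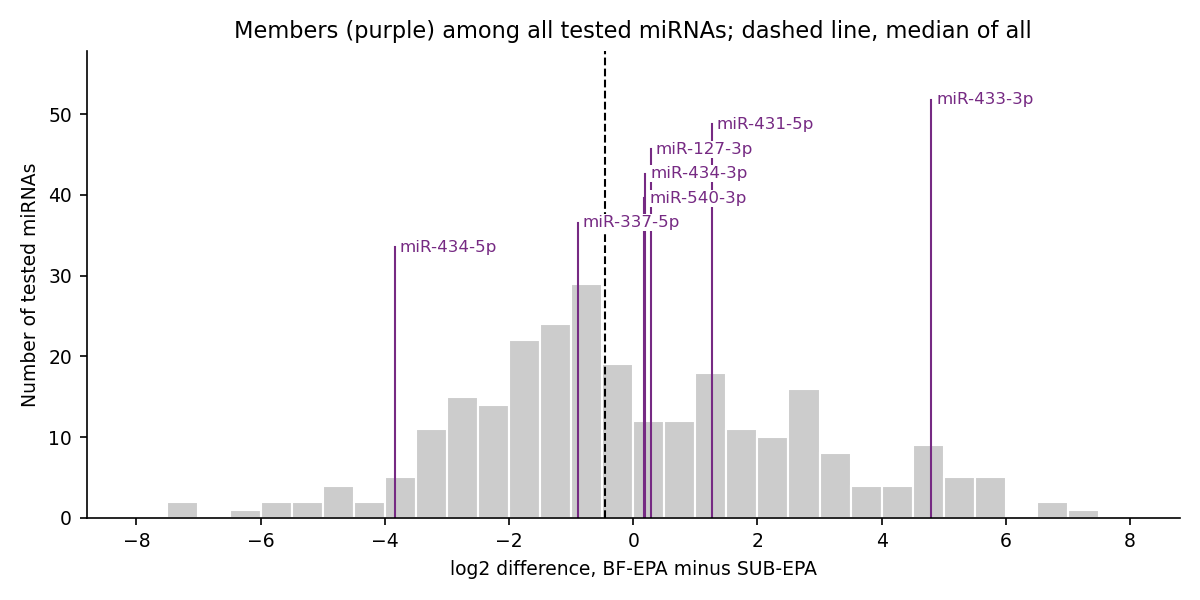
Histogram of the log2 differences, BF-EPA minus SUB-EPA, of all 269 tested miRNAs in bins of 0.5, with the 7 tested arms as purple lines whose heights serve only to separate the names. The dashed line is the median of all tested miRNAs, -0.45. MiR-434-5p and miR-433-3p lie towards the tails at -3.84 and 4.80, and miR-127-3p, miR-434-3p and miR-540-3p lie between 0.17 and 0.28.

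The order of the arms by abundance differed between tissues below the leading pair. The mature arms are 20 to 22 bases long, so levels need no correction for length, though small RNA libraries recover different sequences with different efficiency. In brown fat the order was miR-127-3p, miR-434-3p, miR-433-3p, miR-431-5p, miR-540-3p and miR-337-5p, of which only miR-540-3p and miR-337-5p overlapped. In subcutaneous fat miR-127-3p and miR-434-3p were followed by miR-434-5p, miR-337-5p, miR-540-3p, miR-431-5p and miR-433-3p. There miR-434-5p overlapped miR-337-5p and miR-540-3p and touched miR-431-5p, with both at 6.66 in SUB-EPA 8, and miR-540-3p overlapped miR-431-5p, so the order of these arms is not firm.

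Hairpins that are neighbours among the 7 were compared within each library, where a scaling by a single number per library cancels out. Other hairpins can lie between them, as Mir665, Mir3070a and Mir3070b do between Mir540 and Mir431. A normalization by rank, which the deposited values resemble, need not cancel. MiR-337-5p minus miR-540-3p, from hairpins 194 bases apart, was 0.10, -1.51 and -0.22 in BF-EPA 3, 4 and 5 and 0.55, 0.10 and 0.91 in SUB-EPA 1, 3 and 8. MiR-540-3p minus miR-431-5p, from hairpins 4300 bases apart, was -0.83, -0.56 and -1.84 in brown fat and 0.14, 0.22 and -0.33 in subcutaneous fat. All brown values lay below all subcutaneous ones for both pairs, but for the first pair BF-EPA 3 and SUB-EPA 3 differed only in the third decimal. The tissue difference of the first pair was -1.06, and -0.58 without BF-EPA 4; that of the second was -1.09, and -0.71 without BF-EPA 5. The exact two-sided permutation p was 0.10 for each, before and after adjustment over the 2 pairs, which is the smallest that 3 against 3 libraries allow. MiR-431-5p minus miR-433-3p, 1177 bases apart, had a mean of -1.08 in brown fat and 2.46 in subcutaneous fat, and the order of these neighbours was reversed. That pair was not tested because miR-433-3p was at the floor in 2 libraries.

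No library was high or low for all arms of its tissue. Among the 5 arms above the floor in all 6 libraries, each library had 2 or 3 above and 2 or 3 below the mean of their tissue. In SUB-EPA 1, miR-127-3p was 0.45 and miR-434-3p 0.29 above their tissue means, while miR-431-5p deviated by -0.19. In BF-EPA 4, miR-540-3p was 0.39 above its mean, while miR-337-5p deviated by -0.57. Some arms did share an order: in brown fat miR-431-5p, miR-434-3p and miR-433-3p, which is above the floor in all brown libraries, were each lowest in BF-EPA 4 and highest in BF-EPA 5. MiRNAs outside the 8 arms, among them miR-30c-5p, miR-30e-3p and miR-365-3p, had the same order, so it is not particular to these arms. Those 3 were picked for a pattern like that of miR-431-5p, so how common the order is cannot be read from them.

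Differences in both directions were also found along the rest of the region. Of 90 listed arms from other hairpins between Dlk1 and Dio3, 19 were above the floor in at least 1 library and 13 were tested. Of these, 4 were higher in brown fat, 3 were lower and 6 did not pass the threshold, with a median difference of 0.66. Among all 269 tested miRNAs 33.5% were called higher and 35.7% lower, so mixed directions are not particular to the region. MiR-668-3p stood at 9.15, 8.44 and 8.48 in brown fat, against 4.53 in SUB-EPA 3 and the floor in SUB-EPA 1 and SUB-EPA 8 (4.96 ± 0.47 SE, n = 3 per tissue, limma adjusted p = 0.00018). As for miR-433-3p, SUB-EPA 3 was the only subcutaneous library above the floor. However, 4.53 lies below the lowest value above the floor in SUB-EPA 1 (5.53) and SUB-EPA 8 (4.95), so such a level may not be listed there. MiR-382-5p held the floor value in all brown libraries but stood at 6.34, 5.76 and 5.53 in subcutaneous fat (-2.55 ± 0.47 SE, adjusted p = 0.0034), although its mature arm lies within 1 kb of that of miR-668-3p. Both sizes depend on the floor. After 40 was added to the linear values they were 3.07 for miR-668-3p and -0.99 for miR-382-5p. After the floor was subtracted and 1 added they were 7.38 and -5.63. For miR-382-5p the brown libraries add no spread, so its SE and p can be too small.

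MiR-667-3p stood at 6.04, 6.28 and 5.76 in brown fat, while every subcutaneous library held the floor value (2.71 ± 0.44 SE, n = 3 per tissue, limma adjusted p = 0.002), a call lost after removal of the GC trend (0.93, adjusted p = 0.082). Its size depends on the floor, with 1.08 after 40 was added to the linear values and 5.81 after the floor was subtracted and 1 added. The subcutaneous libraries add no spread, so the SE and p can be too small. MiR-673-5p, upstream of Mir337, stood at 7.70, 7.80 and 7.60 in brown fat, against 5.72 and 6.08 in SUB-EPA 1 and 3 and the floor in SUB-EPA 8. Its difference of 2.66 ± 0.75 (SE, n = 3 per tissue, limma adjusted p = 0.018) lost its call, at nearly the same size, without any one of BF-EPA 3 (2.66, adjusted p = 0.063), BF-EPA 4 (2.61, 0.064) or BF-EPA 5 (2.71, 0.059). The call was also lost after removal of the GC trend (1.69, adjusted p = 0.075) and after the floor was subtracted and 1 added (3.86, adjusted p = 0.082), and without SUB-EPA 8 the difference was 1.80. Of 10 listed arms from other imprinted loci, 5 were above the floor somewhere and 3 were tested. All 3 were called lower in brown fat, where 35.7% of all tested miRNAs were, and every brown library was at the floor for them, so the sizes depend on the floor. Over the alternatives the difference was -10.78 to -5.17 for miR-335-3p and -8.16 to -2.13 for miR-335-5p, both of Mest, and -8.19 to -2.79 for miR-298-5p of the Gnas locus. The other two, named after their values were seen, were not tested. MiR-483-3p of Igf2 stood at 6.04 and 6.28 in BF-EPA 3 and 4 and at the floor in BF-EPA 5 and every subcutaneous library. MiR-296-5p stood at 4.91 in BF-EPA 5 and at 6.28 and 5.74 in SUB-EPA 3 and 8, and at the floor elsewhere.

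**Figure D4:**
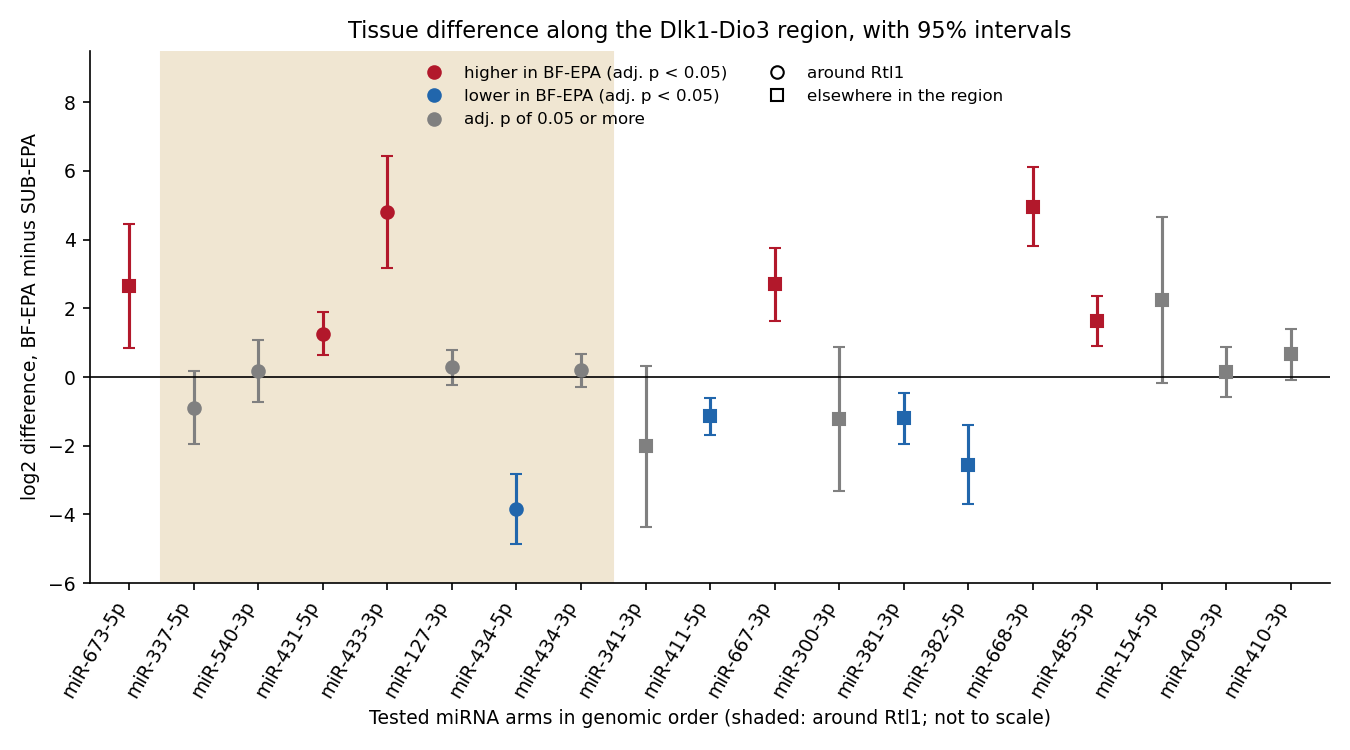
Log2 difference, BF-EPA minus SUB-EPA, with its 95% interval from limma for the tested arms of the Dlk1-Dio3 region with a RefSeq position, in genomic order and not to scale (circles around Rtl1, squares elsewhere). Red marks arms called higher in brown fat, blue those called lower, and grey the others. Red, blue and grey arms are intermixed along the region.

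The miRNAs whose pattern was most like that of an arm were found by the root mean square (RMS) distance between values over the 6 libraries, after each miRNA's mean was subtracted. Closest to miR-431-5p were miR-30c-5p, at an RMS distance of 0.07 on the log2 scale, miR-30e-3p (0.13) and miR-365-3p (0.15). Closest to miR-127-3p were miR-191-5p (0.19), miR-125b-5p (0.19) and miR-410-3p (0.24), the last of which is encoded in the same imprinted region. Closest to miR-434-3p were miR-191-5p (0.20), miR-140-3p (0.24) and miR-30e-5p (0.25). For miR-540-3p they were miR-30a-3p (0.29), let-7b-5p (0.30) and miR-125b-5p (0.31), and for miR-337-5p they were miR-15a-5p (0.37), miR-1843a-5p (0.41) and let-7g-5p (0.42). All 6 libraries share one normalization, and these distances are descriptions. At least 2 of the 3 neighbours of miR-431-5p recurred in 10 of 11 alternatives, but those of miR-337-5p in 5 of 11.

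MiRNAs of other cell types moved with tissue beside these results. The log2 of the summed abundance of 5 fibroblast and smooth muscle miRNAs, all above the floor in all libraries, was 14.64 to 14.91 in brown fat and 16.47 to 16.79 in subcutaneous fat. For both endothelial arms of miR-126 it was 11.65 to 11.89 in brown fat and 13.27 to 13.62 in subcutaneous fat. For leukocyte miRNAs, of which 3 of 5 were above the floor somewhere, it was 15.03 to 15.47 in brown fat and 13.81 to 14.29 in subcutaneous fat, although 1 of the 3 was called higher and 2 lower. For red cell miRNAs, of which 2 of 4 were above the floor, it was 17.68 in each brown library and 14.25 to 15.15 in subcutaneous fat, with 1 called higher and 1 lower. The liver miRNA miR-122-5p was above the floor in brown fat only. Their part in the differences of the imprinted miRNAs was not tested.

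Skeletal muscle and neurons, in which miRNAs of this region are abundant, were also looked at. Of 6 muscle miRNAs 3 were above the floor somewhere, and miR-1a-3p was at the floor throughout. The log2 of their sum was 10.30 to 17.21 in brown fat and 10.73 to 16.91 in subcutaneous fat, so the tissues overlapped. Without BF-EPA 4 and SUB-EPA 3, the libraries highest in miR-133a-3p, miR-431-5p and miR-433-3p were again called higher and miR-434-5p lower. Of 6 neuronal miRNAs only miR-128-3p was above the floor. It stood at 7.57, 9.23 and 7.40 in BF-EPA 3, 4 and 5 and at 7.78, 8.75 and 7.75 in SUB-EPA 1, 3 and 8. It was thus highest in the libraries highest in miR-133a-3p, and its values cannot be read as a measure of neurons alone. The log2 sum of 7 epithelial miRNAs was 8.06 to 8.60 in brown fat, and 15.27 in SUB-EPA 1 against 8.22 and 8.68 in the other subcutaneous libraries. Without SUB-EPA 1, 3 arms were called higher and 1 lower, the added one being miR-127-3p. Of all 269 tested miRNAs, 91 were then called higher and 97 lower.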

How the data were processed

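The deposited table holds log2 values of normalized miRNA abundance. Per the series' design text, reads (about 13.8 M mapped per sample) were mapped to mouse build mm10 and scaled to total usable reads, and the authors added 40 counts; the floor of the table is 10 linear units. The aligner and the miRNA annotation used are not stated in the labels or in the design text. Libraries share one floor and nearly equal ranked values (64.0% of the 100 highest ranks are identical within 1e-06), as in a quantile-normalized table, a step that the design text does not describe. Each difference is therefore close to a move in rank, values carry no depth, and renewed quantile normalization, 1 of the alternatives, changes little by construction. No counting interval is given.

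Differences were fitted with limma 3.58.1 (R 4.3.3) with a mean-variance trend on the 269 miRNAs whose mean value above the floor was at least 24.0 linear units, a fixed share of the mean library total. Python 3.11.15 was used for permutation tests, distances and plots, and the fit was tested on simulated data. In each simulated set 60 of the 269 miRNAs were changed, a smaller share than the 69.1% called in the data, so the rates may differ there. The fit recovered 39.5% of simulated log2 changes of 1, 73.75% of those of 2 and 84% of those of 3. Of its calls, 4.8% were of unchanged miRNAs. An arm that did not pass the threshold is therefore not shown to be equal between tissues. Alternatives were other filters (no filter, or 10 times as strict), pseudocounts (40 added, or the floor subtracted and 1 added), scalings, variance models, removal of GC trends (85.1% of tested miRNAs had a sequence) and leaving out libraries. The fit without the BF-EPA and SUB-EPA libraries with most miR-133a-3p was chosen after seeing the data.

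Named were the 8 arms, other arms around Rtl1 above the floor and up to 4 called arms with the largest differences from other lists. Also named were the 3 nearest miRNAs, outside the 8, of each arm above the floor in all libraries. The arms and lists were chosen with earlier results of these data known. The labels do not say whether both tissues came from the same mice or each library from a separate mouse, so each p-value reflects only sample-to-sample spread, which may be technical. Sequences came from RefSeq (GRCm38.p6) and gene positions from GENCODE M21.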

Additional observations from a re-analysis of the deposited data

How the results depend on the processing

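The count of arms called higher in brown fat was 2, and that of arms called lower was 1, beside 90 and 96 of all 269 tested miRNAs. With a filter 10 times as strict only 2 of the arms, miR-127-3p and miR-434-3p, were still tested, and the counts were 0 and 0. The 3 called arms did not pass that filter. It called 58 of 157 tested miRNAs higher, against 90 of 269. Median-of-ratios scaling, which moved the median of all tested miRNAs by 0.42, gave 4 higher, beside 103 of all 269. With the GC trend removed 3 were called lower, beside 83 of all 229 then tested. The 2 called higher were then miR-433-3p and miR-434-3p, without miR-431-5p. Without both libraries numbered 3, 2 were lower, beside 82 of all 269. Leaving out 1 library at a time gave 2 to 3 higher (3 without SUB-EPA 1) and 1 to 2 lower (2 without BF-EPA 3). Of all 269 tested miRNAs, 91 were called higher without SUB-EPA 1 and 90 lower without BF-EPA 3. The cause of the changes other than that under the strict filter was not tested. The sign turned for miR-127-3p (-0.69) and miR-540-3p (-0.92) with the GC trend removed; without 1 library the difference of miR-540-3p lay between -0.020 (without BF-EPA 4) and 0.46. MiR-433-3p (3.08 to 7.09) and miR-434-5p (-7.06 to -1.88) kept their direction and call in all 16 alternatives that tested them. No paired analysis was possible because the tissues share only the replicate number 3. The unknown depth limits what can be said of arms at the floor.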
